A study of Mus musculus with 20 samples.

Results

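Of the 63318 genes in a deposited count table of mouse heart, 8236 are absent from the reference annotation by their ID and carry only a running number (novelGene_ followed by a number). They are described as gene models built from the study's long reads. These 8236 genes were chosen by that form of their ID alone. A further 1440 unannotated genes whose ID marks them as antisense to a known gene were kept apart. Transcription outside annotated genes is known from most deeply sequenced tissues. It includes long noncoding RNAs (lncRNAs), extensions of known genes, transcribed repeats and copies of processed genes, and much of it is scarce and specific to a tissue or cell state. In the heart, several lncRNAs are known to be made by cardiomyocytes and to fall when the muscle is injured. The numbered genes were proposed as intergenic. The count table gives a length for each and no position, so that description was not checked, and their positions and sequences were not analysed here.

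Counts came from short-read libraries of poly(A) RNA from mouse heart in 4 groups of 4 libraries. Hearts with myocardial infarction (MI) were sampled 72 h after surgery. Hearts with ischemia-reperfusion (IR) had 40 min of "LCA", which the labels do not spell out, followed by 72 h of reperfusion. Each injury had its own sham-operated group (MISham and IRSham), for which the labels give no time. The MI arm was sampled from core and peripheral tissue and the IR arm from core tissue only, so operation and sampled region cannot be told apart when the 2 arms are compared. No strain, sex, age or genotype is stated, nor whether each library came from a separate mouse, so the spread behind each p-value is that of these libraries and may be technical. The 4 long-read libraries were not analysed here.

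MI libraries held 57215382 to 63070805 counts and the other 12 libraries 24273984 to 31832969. The 10 cardiomyocyte markers were all measured, and all 10 were lower after each injury, with a summed level of 67600 to 81800 CPM (counts scaled to one common library total) in MISham against 12200 to 22500 in MI, and of 72000 to 78300 in IRSham against 13400 to 27100 in IR. The 10 macrophage markers rose from 541 to 1350 CPM in MISham to 3430 to 5640 in MI, and from 1050 to 1770 in IRSham to 4060 to 6770 in IR. The 10 fibroblast markers had 2190 to 7940 CPM in MISham, 19800 to 23800 in MI, 5330 to 7880 in IRSham and 22900 to 26200 in IR; 8 were called higher and 1 lower after MI, and 8 and 0 after IR. How far these marker shifts bear on the numbered genes was not tested. In bulk tissue, fewer cells of a type and less RNA per cell cannot be told apart.

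Most numbered genes were scarce. Of the 8236, 859 were listed at 0 in all 16 libraries, and 5031 never reached 10 counts in any library. Another 2621 reached 10 counts in 1 to 15 libraries, and 584 did so in all 16. A filter on low counts left 1620 numbered genes (19.7%) to be tested, and the other 6616 enter no fold change. Of those tested, 876 had a mean at or above the filter's cutoff of 0.349 CPM in all 4 groups. In 194 only 1 group reached it, which was IR for 70, MI for 51, IRSham for 43 and MISham for 30; such genes passed through the group in which they were high, so the counts of changed genes below are descriptions.

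The numbered genes were short. Their median length was 835 bases (quartiles 633.8 and 1192, range 217 to 5745), against 980 bases for the antisense genes, 1268 for annotated lncRNA genes, 586 for annotated pseudogenes and 3574 for protein-coding genes. Most of them, 5119 (62.2%), lay from 500 to under 1000 bases, 149 (1.81%) were shorter than 500, and 454 (5.51%) had 2000 bases or more. The share that passed the filter was 32.2% under 500 bases, 17.6% from 500 to under 1000, 21.6% from 1000 to under 2000 and 28.4% from 2000 up. The longest, novelGene_7979 with 5745 bases, had a mean of 0.0733 CPM and was not tested.

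Per gene, the tested numbered genes had a median level of 0.704 CPM over all libraries, close to the 0.716 CPM of tested lncRNA genes and far under the 23.5 CPM of tested protein-coding genes. The filter removes low levels from every class, so these medians describe only the genes that passed. Over all genes of a class, tested or not, the medians were 0.0328 CPM for numbered genes, 0.0069 for lncRNA genes and 5.92 for protein-coding genes. Per length, their median was 0.759 CPM per kilobase (quartiles 0.405 and 1.96), against 0.432 for lncRNA genes, 0.535 for antisense genes, 1.06 for pseudogenes and 4.83 for protein-coding genes. The filter works on CPM without regard to length, so short genes that pass it have high levels per length. These levels were not tested against each other, because genes are not replicates.

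**Figure D1:**
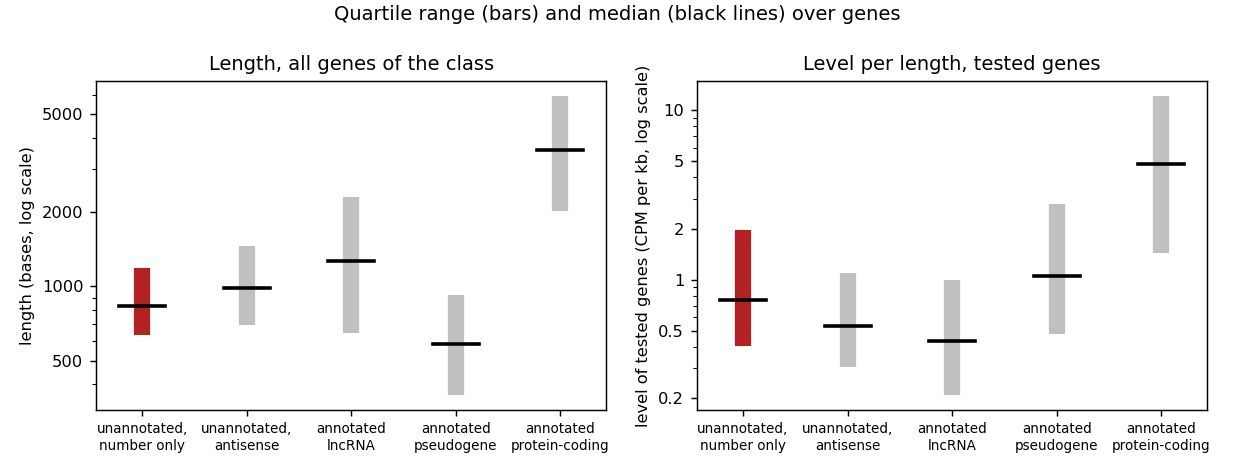
Left, length in bases (log scale) of all genes in 5 classes; right, level per length in CPM per kilobase (log scale) of the genes of each class that were tested. Bars span the quartiles over genes and black lines mark medians. The numbered genes (red) have a median length of 835 bases and, where tested, a median level of 0.759 CPM per kilobase.

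Reads were unevenly spread over these genes. The top 2 took 22% of all counts given to numbered genes, the top 10 took 43.6% and the top 100 took 71.7%. The 5 most abundant fell into 3 patterns across the groups, and none has a name or a known function in the files.

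The top 2, novelGene_7316 (564 bases) and novelGene_5252 (403 bases), passed neither injury test in the fit over all 4 groups. In libraries 1 to 4, novelGene_7316 had 533, 553, 621 and 924 CPM in MISham and 1120, 938, 892 and 1220 in MI. It had 421, 1270, 771 and 988 CPM in IRSham and 1020, 320, 577 and 1360 in IR, so that its highest and lowest libraries both belong to IR. The log2 fold change was 0.67 ± 0.39 (SE) after MI (adjusted p = 0.154) and -0.07 ± 0.39 after IR (adjusted p = 0.89). For novelGene_5252 the group means were 569 ± 167 CPM (SD, n = 4) in MISham, 830 ± 117 in MI, 660 ± 267 in IRSham and 585 ± 311 in IR, and neither injury passed the test (adjusted p = 0.218 and 0.713). When only MI and MISham were fitted, both genes passed after MI (adjusted p = 0.0131 for novelGene_7316 and 0.0432 for novelGene_5252), and novelGene_7316 also did with library totals alone (adjusted p = 0.0402). The small negative IR changes of both genes turn positive when counts are scaled by library totals alone (0.22 and 0.12).

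The next, novelGene_6865 (3477 bases), was higher after injury. It had 255, 115, 436 and 176 CPM in MISham libraries 1 to 4 and 437, 583, 812 and 619 in MI, all above MISham. In IRSham it had 238, 234, 222 and 302 CPM and in IR 279, 546, 655 and 387, where library 1 overlaps the sham. It rose by 1.32 ± 0.36 on the log2 scale after MI (adjusted p = 0.00496). After IR the change was 0.91 ± 0.36 (adjusted p = 0.0417), and it missed the threshold when IR library 2 or 3 or IRSham library 1, 2 or 3 was left out (adjusted p = 0.0849 to 0.132).

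The remaining pair, novelGene_1 (766 bases) and novelGene_824 (506 bases), fell steeply in both injuries. In libraries 1 to 4, novelGene_1 had 604, 684, 562 and 661 CPM in MISham and 150, 119, 184 and 168 in MI, a fall of 2.02 ± 0.19 on the log2 scale (adjusted p = 1.13e-07). It had 617, 685, 561 and 579 CPM in IRSham and 241, 140, 210 and 121 in IR (log2 change -1.78 ± 0.19, adjusted p = 7.27e-07). No injured library reached any sham library, and IR libraries 1 and 3 lay above 2 and 4. For novelGene_824 MISham ran from 280 to 346 CPM and MI from 42.9 to 88.3 (log2 change -2.27 ± 0.23, adjusted p = 5.35e-07). Its IRSham libraries ran from 266 to 302 CPM and its IR libraries from 47.1 to 91.5 (log2 change -2.02 ± 0.23, adjusted p = 2.74e-06). The mitochondrially encoded genes, which serve oxidative phosphorylation and are abundant in heart muscle, moved by a similar amount. All 11 that were tested fell, with a median log2 change of -2.14 (range -2.97 to -1.60) after MI and -1.84 (range -2.79 to -1.54) after IR. Such falls were not particular to these genes. Of all genes tested, 16.4% were called lower by at least 2-fold after MI and 13.1% after IR. All 10 cardiomyocyte markers also fell after each injury. Whether the counts of these numbered genes share a source with the mitochondrially encoded genes was not tested.

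**Figure D2:**
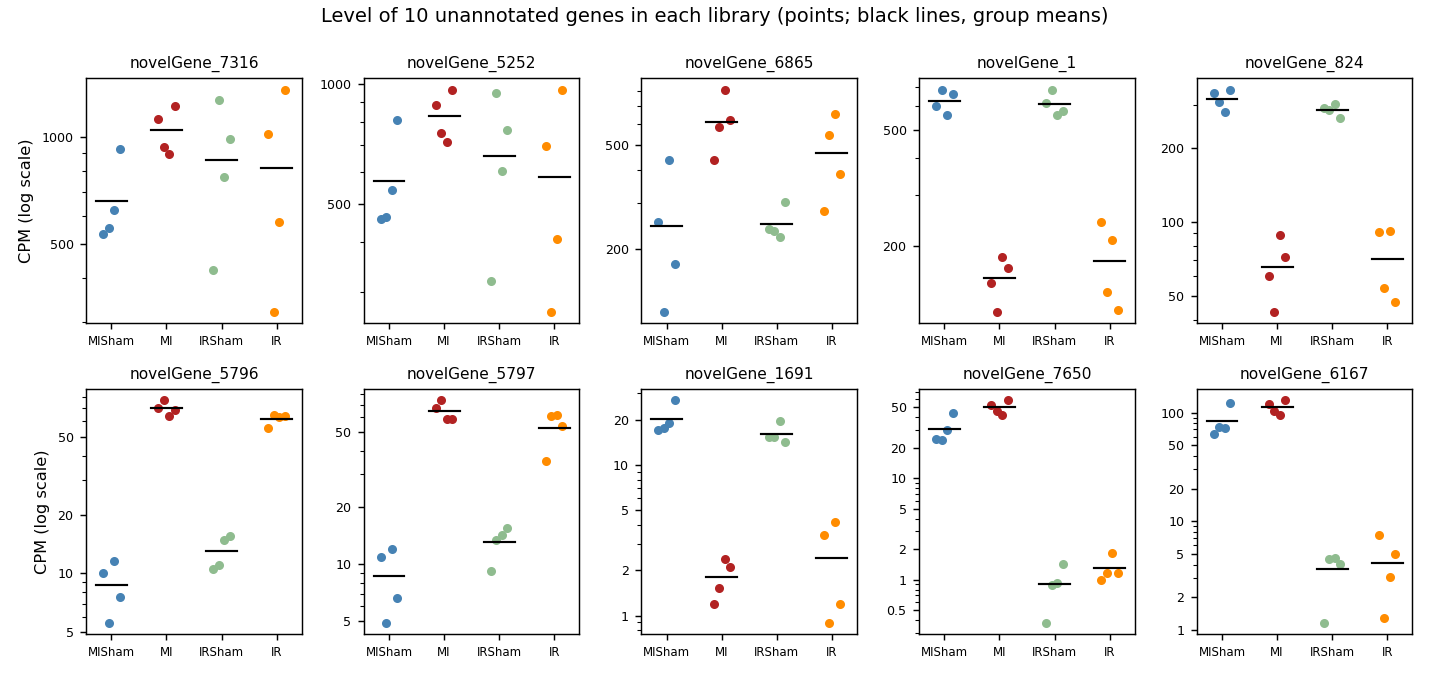
CPM (log scale, its range set for each gene) of 10 numbered genes in each library, by group; points are libraries and black lines are means of 4. The gene novelGene_1 lies between 561 and 685 CPM in the shams and between 119 and 241 after injury, and novelGene_7650 lies at 23.9 CPM or more in MI and MISham and at 1.84 or less in IR and IRSham.

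After MI, 703 of the 1620 tested numbered genes changed, 249 upward and 454 downward (edgeR's quasi-likelihood test, adjusted p under 0.05 over all 19741 genes tested). That is 43.4% of those tested, against 64.9% called among all genes. By direction, 15.4% were higher against 34.8% of all genes, and 28% were lower against 30.2%. By at least 2-fold, 219 numbered genes were higher and 392 lower, where 17.7% and 16.4% of all genes were. The median log2 fold change of tested numbered genes was -0.15 against 0.08 over all genes, and it was the same with the 1 gene listed at 0 in a whole group set to its bound.

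The direction of this balance depends on the scaling. These values are relative to TMM scaling, which assumes that most genes do not change; with library totals alone the median log2 change of all genes was 0.393, and the called numbered genes were 372 higher and 356 lower. The share higher among called numbered genes was thus 35.4% with TMM and 51.1% with library totals. Among all genes called it was 53.5% with TMM. That share was not computed with library totals, so 51.1% has no like value beside it. At 10 CPM and over, with library totals, 24.7% of numbered genes rose after both injuries, against 53.7% of all genes. Annotated lncRNA genes had 354 higher and 631 lower (35.9% higher), antisense genes 56 and 84 (40%), and protein-coding genes 5975 and 4606 (56.5%), all with TMM and without a test of the difference between classes.

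The share called followed abundance. Under 0.3 CPM, 26.8% of 228 numbered genes were called after MI, beside 29% of all genes at that level. The shares were 32.7% of 771 beside 35.8% from 0.3 to 1 CPM, and 51.2% of 367 beside 54.3% from 1 to 3 CPM. They were 76.9% of 173 beside 68.9% from 3 to 10 CPM, and 85.2% of 81 beside 80.4% from 10 CPM up. At like abundance the shares of numbered genes and of all genes therefore differed by at most 8 percentage points, in both directions. The split by direction, which moves with the scaling as given above, differed by bin with TMM. Under 0.3 CPM 59% of the called numbered genes were higher, beside 65.9% of all called genes. The shares were 34.9% beside 46.4% from 0.3 to 1 CPM and 31.4% beside 48.7% from 1 to 3 CPM. They were 30.8% beside 55.4% from 3 to 10 CPM and 36.2% beside 54.6% from 10 CPM up.

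**Figure D3:**
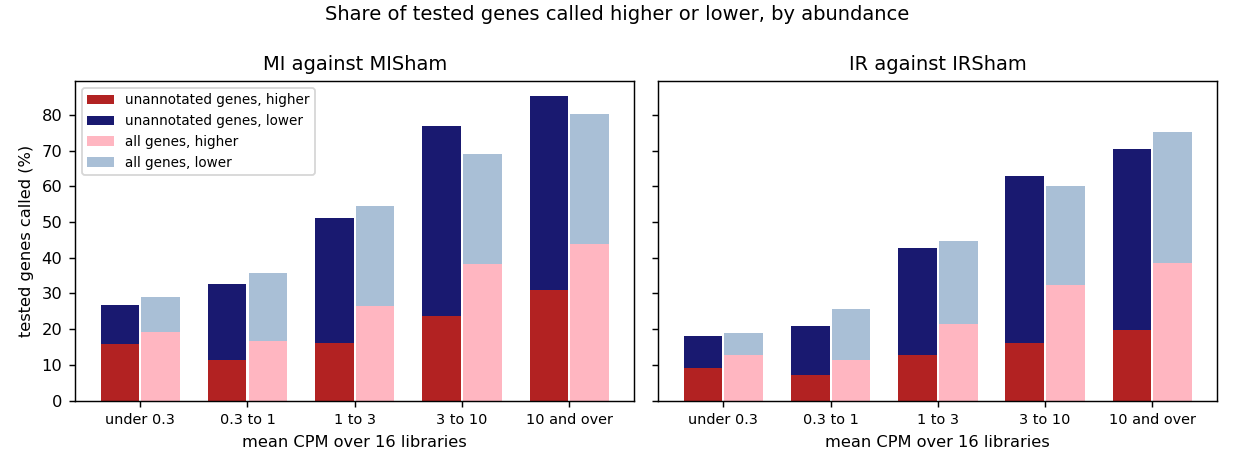
Percentage of tested genes called higher (red) or lower (blue) by edgeR's test at an adjusted p under 0.05, by mean CPM over the 16 libraries; dark bars are numbered genes and pale bars all genes tested. The share called climbs with abundance in both sets, from 26.8% to 85.2% of numbered genes after MI.

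Among the 81 numbered genes with a mean of at least 10 CPM, 57 (70.4%) changed after both injuries, beside 69.8% of all genes at that level, so the share itself was near the background. Of the 81, 16 (19.8%) rose in both and 41 (50.6%) fell in both with TMM, beside 36.5% and 33.2% of all genes at that level. With library totals alone 20 (24.7%) rose and 37 (45.7%) fell, beside 53.7% and 22.5% of all genes. The 4 largest changes each way in that set are given here; this choice was made after their values were seen. The rises were led by novelGene_5796 (1627 bases), with 10.1, 5.58, 11.6 and 7.56 CPM in MISham libraries 1 to 4 against 70.6, 77, 64 and 68.8 in MI. It had 10.5, 11, 14.9 and 15.5 CPM in IRSham and 55.4, 64.4, 63.1 and 63.9 in IR. Injured and sham libraries were far apart in both arms, with log2 changes of 3.0 ± 0.18 after MI (adjusted p = 3.18e-09) and 2.25 ± 0.18 after IR (adjusted p = 6.84e-08). Next to it in number and in level was novelGene_5797 (1374 bases), which rose from 8.64 ± 3.42 to 64.5 ± 7.44 CPM after MI and from 13.1 ± 2.71 to 52.9 ± 12.1 after IR. The ratio of novelGene_5796 to novelGene_5797 per kilobase stayed between 0.685 and 1.32 in the 16 libraries, while novelGene_5796 itself varied 13.8-fold.

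The other 2 rises were of long models. For novelGene_1155 (2174 bases) the level was 22.3 to 41.5 CPM in MISham and 131 to 181 in MI (log2 change 2.25 ± 0.29, adjusted p = 9.49e-06), and 22.3 to 53 in IRSham and 48.9 to 92.2 in IR (1.09 ± 0.28, adjusted p = 0.00451). Its IR and IRSham libraries overlapped and its MI and MISham libraries did not. For novelGene_329 (4504 bases) the level was 26.1 to 89 CPM in MISham and 237 to 345 in MI (2.30 ± 0.42, adjusted p = 0.000287). In IR it reached 74.5 to 177 CPM against 29.5 to 94.8 in IRSham (1.08 ± 0.41, adjusted p = 0.0368), a call that was lost on leaving out any 1 of IR libraries 2, 3 and 4 or IRSham libraries 1, 2 and 3 (adjusted p = 0.0546 to 0.116). The longest gene called in any comparison, novelGene_6684 (4968 bases), rose from 69.4 ± 36.3 to 214 ± 42.8 CPM after MI (1.62 ± 0.34, adjusted p = 0.00077). Its IR change, 0.85 ± 0.33 (adjusted p = 0.0418), was lost on leaving out any 1 of the same 6 libraries (adjusted p = 0.0676 to 0.143).

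The abundant falls were led by novelGene_1691 (1449 bases). It had 17.2, 17.5, 19 and 26.9 CPM in MISham libraries 1 to 4 and 1.2, 1.53, 2.39 and 2.11 in MI, a log2 change of -3.48 ± 0.39 (adjusted p = 1.23e-06). In IRSham it had 15.3, 15.4, 19.5 and 14.3 CPM and in IR 3.42, 0.892, 4.19 and 1.2, a change of -2.74 ± 0.39 (adjusted p = 1.99e-05). IR libraries 1 and 3 kept more of it than 2 and 4, and all 4 lay below every sham library. The same order held for novelGene_3330 (757 bases), with 14.1, 3.1, 9.35 and 3.71 CPM in IR libraries 1 to 4. That gene lay at 46 to 47.8 CPM in MISham, 4.08 to 5.75 in MI and 30.1 to 49.4 in IRSham, and its log2 change was -3.24 ± 0.37 after MI and -2.32 ± 0.37 after IR (adjusted p = 2.93e-06 and 8.41e-05). The last 2, novelGene_4271 (1120 bases) and novelGene_6697 (1262 bases), both fell, with log2 changes of -2.99 ± 0.30 and -2.74 ± 0.38 after MI and of -2.41 ± 0.30 and -2.32 ± 0.39 after IR.

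The largest fold changes, in contrast, came from genes with few counts. Called genes whose MI and MISham libraries did not overlap numbered 215 higher (13.3% of those tested, against 32.3% of all genes) and 371 lower (22.9%, against 27.6%). Among called genes whose MI and MISham libraries did not overlap, the 4 largest rises were of novelGene_6981, novelGene_4528, novelGene_5876 and novelGene_1039. The gene novelGene_6981 (561 bases) had 0 counts in MISham and 93 in MI over the 4 libraries, or 0.241 to 0.42 CPM in MI, which puts it at least 10.8-fold higher with the floor of 3 counts taken over the group. With 2 counts against 208, novelGene_4528 (1764 bases) was 36.1-fold higher (95% counting interval 9.88 to 300), and with 1 against 79, novelGene_1039 (907 bases) was 27.4-fold higher (4.79 to 1100). These intervals cover counting error only. They take every count as an independent molecule, which need not hold in these data, so they may be too narrow. For novelGene_5876 (533 bases) the level went from 0.0434 ± 0.0504 CPM in MISham to 0.997 ± 0.303 in MI (log2 change 4.44 ± 0.81, adjusted p = 0.000114). In IRSham, novelGene_4528, novelGene_1039 and novelGene_5876 had means of 0.247, 0.155 and 0.329 CPM, against 0.0201, 0.01 and 0.0434 in MISham. Those sham differences did not pass edgeR's test. Their log2 changes after IR were 2.98 ± 0.57, 1.48 ± 0.77 and 1.84 ± 0.60, and that of novelGene_1039 did not pass (adjusted p = 0.113). The gene novelGene_6981 had 0 counts in IRSham too.

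The 4 largest falls after MI started from higher levels. The best measured, novelGene_4627 (769 bases), had 5.98, 11.7, 7.36 and 8.58 CPM in MISham libraries 1 to 4 and 0.188, 0.463, 0.385 and 0.133 in MI, a log2 change of -4.83 ± 0.65 (adjusted p = 8.53e-06). After IR it fell by 2.53 ± 0.59 (adjusted p = 0.00188), to 1.55 and 2.02 CPM in libraries 1 and 3 but 0.112 and 0.269 in 2 and 4. The other 3 were novelGene_5469 (583 bases; -5.50 ± 1.07), novelGene_111 (955 bases; -4.94 ± 0.75) and novelGene_109 (671 bases; -4.61 ± 0.62), with MISham means of 0.81 ± 0.42, 1.33 ± 0.495 and 1.52 ± 0.377 CPM. Of these, novelGene_5469 rested on 1 library in the other arm: IRSham library 3 had 1.45 CPM and the other 3 at most 0.225. Its IR call (adjusted p = 0.0283) was lost without that library (adjusted p = 0.354), and also without IR library 2 or 4.

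After IR, 526 of the 1620 tested numbered genes changed, 167 upward and 359 downward. That is 32.5%, against 57.7% of all genes. By direction, 10.3% were higher against 29.5% of all genes and 22.2% lower against 28.2%. By at least 2-fold, 129 were higher and 306 lower, where 13.1% of all genes were in each direction. The median log2 fold change was -0.14, against 0.03 over all genes. With library totals alone, 284 were higher and 276 lower, so the share higher among called numbered genes moved from 31.7% to 50.7% while the median change of all genes was 0.323. Among all genes called, 51.1% were higher with TMM, and the share with library totals was not computed. Called shares again followed abundance, from 18% of numbered genes under 0.3 CPM, beside 19% of all genes, to 70.4% at 10 CPM and over, beside 75.3%.

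Called genes whose IR and IRSham libraries did not overlap numbered 118 higher (7.28% of those tested, against 25% of all genes) and 300 lower (18.5%, against 24.6%). The largest IR changes among them were also of scarce genes. The gene novelGene_4964 (1244 bases) had 0 counts in IRSham and 56 in IR, at least 14.1-fold higher, and novelGene_6981 had 0 and 36, at least 9.06-fold higher. With 1 count in IRSham and 140 in IR, novelGene_3689 (1487 bases) was 106-fold higher (95% counting interval 18.7 to 4200). It also rose after MI, from 0.0828 ± 0.0647 to 1.34 ± 0.428 CPM (log2 change 3.94 ± 0.57, adjusted p = 9.75e-06). With 1 count in IRSham and 36 in IR, novelGene_3883 (1471 bases) was 27.2-fold higher (4.57 to 1100), but its MI and MISham libraries overlapped (0.147 to 0.513 CPM against 0 to 0.467).

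Among the IR falls, novelGene_109 had 1.24, 1.98, 1.81 and 1.19 CPM in IRSham libraries 1 to 4 and 0, 0.0558, 0.241 and 0 in IR (log2 change -4.29 ± 0.66, adjusted p = 2.45e-05), beside its like fall after MI. The counts of novelGene_4792 (1368 bases) were 50 in IRSham and 1 in IR, a 66.3-fold lower level (95% counting interval 11.4 to 2670). Those of novelGene_6470 (1098 bases) were 32 and 1, 42.4-fold lower (7.08 to 1730), and those of novelGene_4580 (984 bases) were 38 and 2, 25.2-fold lower (6.51 to 215). All 3 also fell after MI, with log2 changes of -2.99 ± 0.88, -3.03 ± 0.71 and -4.29 ± 0.85 (adjusted p = 0.00625, 0.00117 and 0.000253).

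The 2 injury comparisons share no library, so genes chosen in one could be looked up in the other. Of the 249 numbered genes higher after MI, 121 (48.6%) were also called higher after IR, and they make up 72.5% of the 167 called there. Over all genes these shares were 76.3% and 90.1%. Of the 454 lower after MI, 314 (69.2%) were also called lower after IR, 87.5% of the 359 called there, against 82.2% and 88% over all genes. The shared calls of numbered genes were thus near or below the background. No numbered gene was called in opposite directions, while over all genes 12 called higher after MI were called lower after IR and 4 the reverse. The IR log2 change was above 0 for 233 (93.6%) of the genes higher after MI and below 0 for 442 (97.4%) of those lower after MI, against 96.5% and 97.9% over all genes. Their median log2 change was 1.73 after MI and 1.00 after IR for the higher genes, and -1.76 and -1.31 for the lower ones. These genes were chosen on their MI change, which enlarges their MI medians and not their IR medians. The gap between the medians therefore does not compare the sizes of the responses. Over all 1620 tested genes the 2 log2 changes correlated with Pearson's r = 0.802 and Spearman's rho = 0.802, a description across genes that share the same libraries; over all 19741 genes tested r was 0.871 and rho 0.881.

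**Figure D4:**
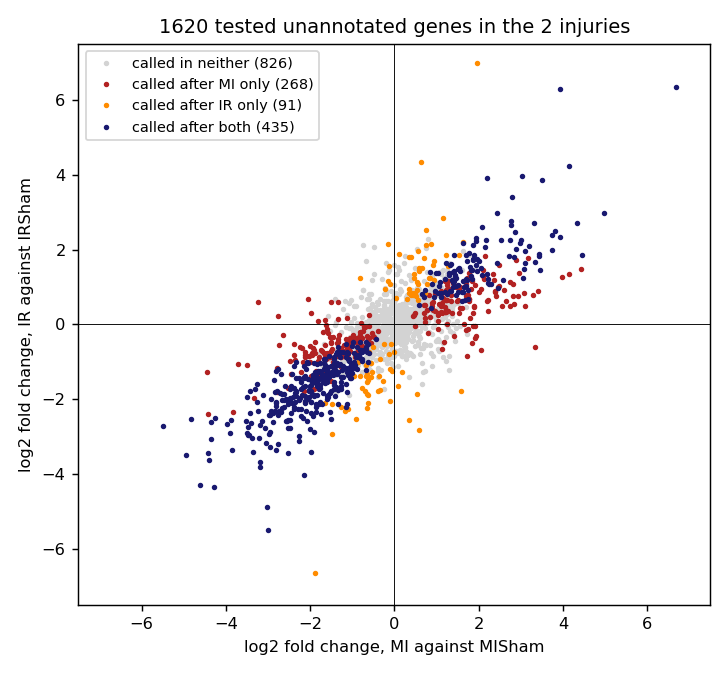
Log2 fold change of the 1620 tested numbered genes after MI (x axis) and after IR (y axis), coloured by edgeR's call at an adjusted p under 0.05: 435 called after both, 268 after MI only, 91 after IR only and 826 after neither. Genes called after both lie at the lower left and the upper right; fitted values of genes at or near 0 counts in a group are not bounds.

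The IR libraries differed in how far these genes moved. The genes lower after MI had a mean log2 CPM, with 0.1 CPM added, of 1.14 to 1.33 in IRSham. In IR it was 0.28 and 0.21 in libraries 1 and 3 and -0.35 and -0.28 in libraries 2 and 4, so that all 4 lay below the shams. The genes higher after MI had -0.30 to 0.16 in IRSham and 0.77, 0.99, 0.93 and 1.03 in IR libraries 1 to 4, with no such split. In MISham, whose libraries took part in choosing the genes, libraries 1 and 3 had -0.18 and -0.16 for the higher genes and 2 and 4 had -0.71 and -0.62. Leaving out IR libraries 1 and 3 gave 153 genes higher and 368 lower after IR. These were 27.2% of the numbered genes then tested, against 52.9% of all genes. The filter was applied anew to the libraries kept, so the set tested was not that of the main fit.

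No numbered gene passed edgeR's test of a difference between the MI and IR responses, against 0.192% of all genes. At an unadjusted p under 0.05 there were 130 (8.02%), against 14.7% of all genes. DESeq2 called 17 (1.05%, against 2.59% of all genes), and gave no adjusted p to 693. With MISham libraries 1 and 3 left out edgeR called 29 (1.45%, against 5.18% of all genes), 22 of them with the higher MI response. For the genes chosen on MI, those libraries lay nearer to MI than MISham libraries 2 and 4. Leaving them out widens the MI response by itself, so the 29 are no evidence of a difference. Equally, the count of 0 does not show that the responses were alike.

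The 2 sham groups differed in 6 numbered genes (0.37%, against 3.2% of all genes), 4 higher in MISham and 2 lower (2.34% and 0.866% of all genes). Both large differences were of short, moderately abundant genes. The gene novelGene_7650 (615 bases) had 24.6, 23.9, 29.8 and 44.4 CPM in MISham libraries 1 to 4 but 0.375, 0.88, 0.927 and 1.43 in IRSham, a log2 difference of 5.09 ± 0.30 (adjusted p = 1.78e-08). The injured hearts showed the same gap, with 42.3 to 58.6 CPM in MI and 0.987 to 1.84 in IR. For novelGene_6167 (412 bases) MISham had 63.7 to 122 CPM and IRSham 1.16 to 4.63 (4.54 ± 0.47, adjusted p = 2.34e-05), with 95.1 to 130 in MI and 1.28 to 7.41 in IR. Every MI and MISham library thus lay more than 10 times above every IR and IRSham library for novelGene_7650. Annotated pseudogenes showed a like shift: 383 of 1069 tested were higher in MISham and 12 lower. Operation, region and any difference in handling between the arms cannot be told apart.

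The other 4 sham differences were smaller. In MISham, novelGene_4657 (1670 bases) was at 15.7 ± 2.24 CPM against 10.2 ± 0.237 in IRSham (0.62 ± 0.13, adjusted p = 0.00788) and novelGene_1422 (624 bases) at 0.58 ± 0.27 against 1.88 ± 0.288 (-1.69 ± 0.35, adjusted p = 0.00668). The calls of novelGene_2859 (890 bases; 2.02 ± 0.48, adjusted p = 0.0206) and novelGene_6413 (1197 bases; -1.64 ± 0.39, adjusted p = 0.0229) were each lost on leaving out any 1 of 4 libraries. For novelGene_2859 these were IRSham libraries 2 and 4 and MISham libraries 2 and 3 (adjusted p = 0.0569 to 0.0772), and the call was also lost with a replicate block (adjusted p = 0.0572). For novelGene_6413 they were IRSham libraries 2 and 3 and MISham libraries 1 and 2 (adjusted p = 0.0549 to 0.0834), and the call was also lost without a filter on low counts (adjusted p = 0.0695). The latter gene fell in both injuries all the same, from 3.13 ± 1.58 to 0.698 ± 0.259 CPM after MI (-2.16 ± 0.41, adjusted p = 0.00019) and from 9.74 ± 0.419 to 1.73 ± 0.98 after IR (-2.50 ± 0.40, adjusted p = 4.63e-05).

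Taken as one set, the numbered genes made up 0.873 ± 0.050% of the counts of MI libraries and 0.647 ± 0.049% of those of MISham libraries (SD, n = 4). The IR libraries had 0.678 ± 0.091% and the IRSham libraries 0.668 ± 0.073%. All 4 MI libraries (0.83 to 0.926%) lay above all MISham libraries (0.593 to 0.694%). The two-sided exact permutation p was 0.0286, and 4 libraries against 4 cannot give a smaller one. Adjusted over 6 tests this p became 0.0857, so the difference did not pass, and neither did IR against IRSham (exact permutation test, adjusted p = 0.914). The MI libraries stayed above the MISham libraries without the 10 most abundant numbered genes, at 0.464 ± 0.032% against 0.401 ± 0.017%. Outside the numbered genes, the mitochondrially encoded share of counts was 7.45 to 8.4% in MISham and 1.88 to 2.82% in MI. With mitochondrially encoded genes taken out of the total, the numbered genes held 0.895 ± 0.054% in MI and 0.703 ± 0.051% in MISham. With the 10 most abundant genes of each library taken out instead, they held 0.929 ± 0.058% and 0.756 ± 0.054%. The adjusted p was again 0.0857 in both cases (exact permutation test).

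The number of numbered genes detected depended on depth and on the count asked for. At the counts deposited, 1940 to 2121 numbered genes reached 10 counts in MI and 1094 to 1215 in MISham. With every library thinned at random to 24273984 counts, the total of the shallowest, the numbers were 1185 ± 27.9 in MI and 1117 ± 21.1 in MISham (exact permutation test, two-sided p = 0.0286; adjusted p = 0.0857). They were 1270 ± 51.1 in IR and 1162 ± 59.3 in IRSham (exact permutation test, adjusted p = 0.114), and neither passed. With at least 1 count asked for at that depth, MI had 4008 ± 98.6 and MISham 3167 ± 94.6 (adjusted p = 0.0857, exact permutation test). With at least 30, MI had 506.8 ± 8.14 and MISham 520.2 ± 17.1, so the direction turned. MI libraries lost the largest share of their counts to the thinning, and how thinning acts on counts that come mostly in pairs was not tested.

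**Figure D5:**
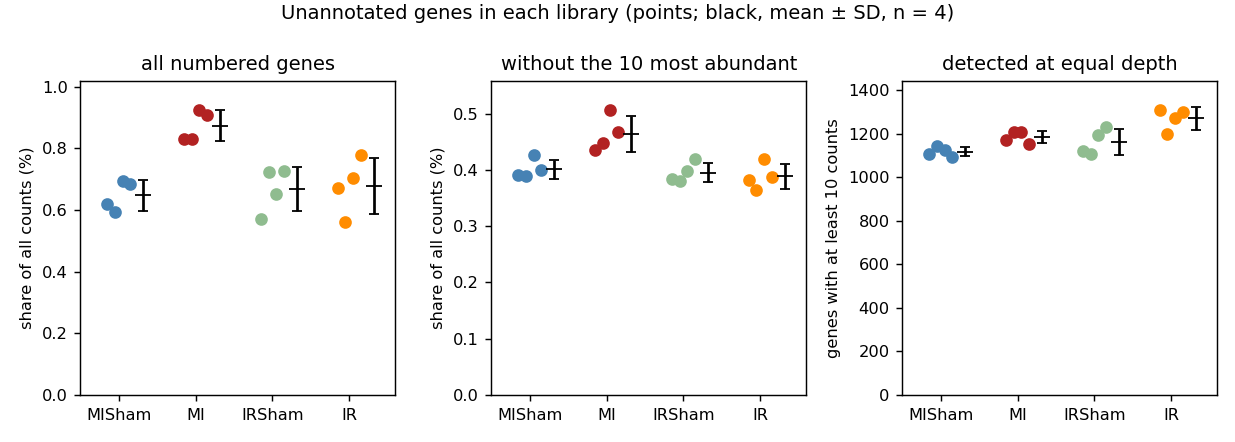
Each point is a library and black marks give the mean ± SD of 4. Left and middle, share of all counts (%) held by all 8236 numbered genes and by all but the 10 most abundant; right, numbered genes with at least 10 counts after thinning to equal depth. MI libraries lie between 0.83 and 0.926% on the left, above the 0.593 to 0.694% of MISham, and between 1152 and 1208 genes on the right.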

How the data were processed

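Gene counts were deposited by the authors as whole numbers with no normalization, beside a length in bases for each gene. Per the submitters' processing notes, the genome build was GRCm39 and the tools were kallisto 0.50.1, featureCounts 2.0.1, HISAT2 2.2.1 and SAMtools 1.7, with no role given; strand setting, annotation release and the tool that numbered the genes are not given in the sources used here. Numbered genes had 2 counts far more often than 1 (11804 against 4615 values), and so did annotated genes (26879 against 15243 values). A count need therefore not be an independent molecule in either set. The deposited transcript table was not used here.

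Counts were fitted in R 4.3.3 with edgeR 4.0.16 over all 16 libraries: filterByExpr (minimum count 10, total 15), TMM, 1 mean per group, robust quasi-likelihood test, Benjamini-Hochberg over 19741 genes. CPM are TMM-scaled; an SE is the log2 fold change divided by the root of its test statistic. Biotypes came from GENCODE M21 by ID (52080 of 53633 matched). Exact permutation tests used SciPy 1.17.1. DESeq2 1.42.0, other scalings and filters, thinning and left-out libraries were alternatives. The fit was tested on simulated data. No 2 libraries of a group held the same counts.

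Members and lists were chosen with earlier results of these data known. Named genes are the 5 most abundant, the 4 largest called changes each way per injury without overlap of the groups, the called sham differences, the longest and longest called, and 8 abundant genes chosen after their values were seen.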

Additional observations from a re-analysis of the deposited data

Results flagged for a closer look

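Among the 35 named genes and both library measures, 145 groups of 4 libraries were examined for 1 library set far apart from the other 3. Of these groups 16 (11%) were flagged. Chance flags about 1 in 20 for normally distributed values, a rate that does not apply near 0 counts. A group with counts in a single library is always flagged, so the 11% shows no excess over chance. In 8 of the flagged groups a single library held the only 1 to 10 counts of its group. These were novelGene_4528 (MISham library 1, 0.0802 CPM), novelGene_1039 (MISham library 1, 0.0401), novelGene_4964 (MISham library 2, 0.45), novelGene_3689 (IRSham library 3, 0.0403), novelGene_3883 (IRSham library 4, 0.0409), novelGene_4792 (IR library 1, 0.0353) and novelGene_6470 (IR library 2, 0.0279), with the other 3 libraries at 0 in each. The same held for novelGene_4580 in IR library 1 (0.0705 CPM). Without MISham library 2, novelGene_4964 passed edgeR's test after MI (adjusted p = 0.000232), which it had missed (adjusted p = 0.0696). That library was singled out for holding all 10 MISham counts of this gene, so the pass is no evidence of a change. MISham is then at 0 throughout, so no size of the change is given.

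At higher counts, MI library 3 stood above the other 3 MI libraries in 3 genes: novelGene_329 (345 CPM against 237 to 244), novelGene_6697 (5.52 against 2.45 to 2.73) and novelGene_1422 (0.963 against 0.519 to 0.56). Low values were those of novelGene_6167 in IRSham library 1 (1.16 CPM against 4.09 to 4.63), novelGene_5796 in IR library 1 (55.4 against 63.1 to 64.4) and novelGene_5469 in MISham library 4 (0.187 against 0.963 to 1.1). High values were those of novelGene_5469 in IRSham library 3 (1.45 CPM) and novelGene_6470 in MI library 4 (0.147, against 0.014 to 0.0321 in the others).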

How the results depend on the processing

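The counts of numbered genes called after MI (541 to 752) and after IR (430 to 587) stayed within 1.5 times the reported 703 and 526 under every alternative run, leaving out 1 library included (627 to 697 and 458 to 537). The share of tested numbered genes called moved more, because the filter sets how many are tested. Without a filter it was 9.96% after MI and 7.21% after IR, against 30.6% and 26.3% of all genes. With a filter on mean CPM it was 54.5% and 43.3%, against 71.2% and 64.6%. For the difference of the 2 responses, reported as 0, no filter on low counts gave 1 (0.0136%, against 0.286% of all genes). Leaving out IR libraries 1 and 3 also gave 1 (0.0521%, against 0.617%). DESeq2 gave 17 (1.05%, against 2.59%), leaving out MISham libraries 1 and 3 gave 29 (1.45%, against 5.18%), and leaving out 1 library 0 to 1. For the 6 sham differences, fitting only the shams gave 10 (0.877%, against 3.26% of all genes) and DESeq2 34 (2.1%, against 4.88%). Leaving out MISham libraries 1 and 3 gave 33 (1.65%, against 7.91%), and leaving out 1 library 6 to 12. The cause was not tested. Replicate numbers did not pair MI with MISham, IR with IRSham or MISham with IRSham (correlations of deviations -0.148 to 0.0553). Other pairs of groups, such as MISham with IR, were not examined. A replicate block gave 670, 501, 0 and 5. These were 41.4%, 30.9%, 0% and 0.309% of numbered genes, against 63.8%, 56.1%, 0.0507% and 2.8% of all genes.

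The IR minus IRSham share of counts (0.010 percentage points) became -0.0221 without mitochondrially encoded genes, -0.0483 without the 10 most abundant genes of each library and -0.00682 without the 10 most abundant numbered genes, and ran from -0.0235 to 0.0495 on leaving out 1 library. MISham minus IRSham (-0.0209) became 0.00635 without those numbered genes and ran from -0.0531 to -0.00175, and MI minus MISham from 0.208 to 0.242. The detection differences ran from 60.3 to 78.9 (MI), 88.5 to 131 (IR) and -64.3 to -22.6 (shams), and that of MI was -13.5 at 30 counts. Leave-one-out ranges of these measures carry no test. Of the single genes' log2 changes, 1037 values kept direction and call, 37 lost the call, 7 gained it and 7 turned direction, all 7 in the uncalled IR changes of novelGene_7316 (0.22 with library totals; -0.435 to 0.193 on leaving out 1 library, with 0.061 and 0.173 between) and novelGene_5252 (0.116; -0.53 to 0.064, with 0.051 between). Of the calls lost, those of novelGene_6865, novelGene_6684 and novelGene_329 after IR were also lost without a filter on low counts and without IR libraries 1 and 3, that of novelGene_6413 between the shams without that filter, and that of novelGene_7650 after MI without MISham libraries 1 and 3 (adjusted p = 0.108). The calls gained were of novelGene_7316, novelGene_5252 and novelGene_4964 after MI and of novelGene_1039 after IR.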

Other observations

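Numbered genes with consecutive numbers mostly shared a direction where both were called. The sources used here do not say what the numbering follows. Of 618 pairs of tested genes with consecutive numbers, both were called after MI in 183, and 160 of these (87.4%) changed in the same direction, 49 both higher and 111 both lower; the split of all called numbered genes was 35.4% higher. After IR it was 105 of 121 (86.8%). Among the 81 genes at 10 CPM or more, 28 stood in 13 runs of consecutive numbers, among them novelGene_5796 and novelGene_5797, and whether such neighbours are separate genes was not tested.

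The 2 most abundant numbered genes kept a narrow ratio. The level of novelGene_7316 spanned 4.26-fold over the 16 libraries, yet its ratio to novelGene_5252 per kilobase stayed between 0.812 and 1.04. For novelGene_1 and novelGene_824 the same ratio ran from 1.19 to 1.83, and for novelGene_7650 and novelGene_6167 from 0.0893 to 0.612.

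Numbered genes that rose had the largest median length of the 4 outcomes. Median lengths were 1028 bases for numbered genes higher after MI, 899 for those lower, 874 for those tested and not called and 820 for those not tested; after IR they were 990, 897, 885.5 and 820. These lengths were not tested, and their median levels also differed (1.02, 1.42, 0.5 and 0.0194 CPM in the order given for MI).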
